A study of Mus musculus with 13 samples.

Results

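The sites described here are the 7384 OLIG2 called peaks of mouse oligodendrocyte precursor cells (OPCs), all peaks of the deposited list, and the question was which of them already carried H3K4me3 or H3K27me3 in neural stem cells (NSCs), the earlier stage of the lineage. They make up 7384 of the 24295 OLIG2 called peaks analysed, of which 16911 came from newly formed oligodendrocytes (NFOs), in a series of 13 samples with 1 library per condition. NSCs were bought as cells of the embryonic cortex of CD-1 mice and grown with EGF and FGF, and their labels give another strain, C57BL/6. OPCs and NFOs were immunopanned from C57BL/6 brains taken at postnatal day 7, OPCs on PDGFRα plates and NFOs on GalC plates, and no sample was treated. The NSCs were thus cultured and the later stages were taken from tissue, and stage cannot be told apart from strain, culture and library. OLIG2 was precipitated from low cell numbers with the True MicroChIP Kit and its libraries were made with the DNA SMART ChIP-Seq Kit. The kit for the histone libraries is not given in the sources used here. The antibody field of each histone sample names the other mark than its title, and titles were followed. By titles, the promoters of 39 of 39 Hox genes, which are known Polycomb targets in neural cells, overlapped an NSC H3K27me3 peak, against 0 of 15 ubiquitously active genes. The OLIG2 list of NSCs was not analysed here.

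OLIG2 is a basic helix-loop-helix transcription factor that binds E-boxes, six-letter sites of the form CANNTG, and is needed to make oligodendrocytes. H3K4me3 marks active or poised promoters. H3K27me3 is laid down by the Polycomb repressive complex PRC2 and marks silenced developmental genes, and promoters with both marks are called bivalent.

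A mark was counted where an OLIG2 peak overlapped, by at least 1 bp, an NSC histone peak whose fold enrichment exceeded 3.5 at an FDR under 0.05, which 26343 H3K4me3 and 22485 H3K27me3 peaks met. Fold enrichment is the ratio of ChIP to control signal that the authors' peak caller gave. Each class had 1 library, so no comparison between stages was tested. Intervals are exact binomial (Clopper-Pearson) 95% intervals over peaks and cover counting error only. The lists do not tell how deeply a library was sequenced.

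Sequences are shown for some of the strongest sites of each class, because their letters bear on what follows. They come from the GRCm38 (mm10) genome, plus strand, with every E-box in capitals. The first 5 are OLIG2 peaks on NSC H3K27me3. The peak near Foxd3, a forkhead factor of the neural crest, was intergenic at chr4:99661123-99661252. That near the lncRNA Gm34992 was intergenic at chr1:90327587-90327816. That of Rnf114, a ubiquitin ligase, lay in an intron at chr2:167499009-167499238. The peaks near Gm31656 and Ptpn21, a tyrosine phosphatase, were intergenic at chr5:35313657-35313750 and chr12:98739575-98739804.
Foxd3: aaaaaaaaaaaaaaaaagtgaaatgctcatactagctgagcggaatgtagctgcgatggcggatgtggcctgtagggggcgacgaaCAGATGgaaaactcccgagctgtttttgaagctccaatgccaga
Gm34992: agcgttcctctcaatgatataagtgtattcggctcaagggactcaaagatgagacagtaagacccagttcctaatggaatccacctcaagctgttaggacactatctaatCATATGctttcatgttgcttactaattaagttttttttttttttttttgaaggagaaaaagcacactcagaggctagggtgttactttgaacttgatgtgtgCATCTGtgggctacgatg
Rnf114: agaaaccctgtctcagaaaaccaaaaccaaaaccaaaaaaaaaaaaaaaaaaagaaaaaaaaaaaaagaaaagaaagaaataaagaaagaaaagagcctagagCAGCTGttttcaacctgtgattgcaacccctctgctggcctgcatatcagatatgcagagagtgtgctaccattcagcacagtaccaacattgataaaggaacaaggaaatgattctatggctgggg
Gm31656: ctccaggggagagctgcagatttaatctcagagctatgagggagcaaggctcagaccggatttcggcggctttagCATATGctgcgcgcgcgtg
Ptpn21: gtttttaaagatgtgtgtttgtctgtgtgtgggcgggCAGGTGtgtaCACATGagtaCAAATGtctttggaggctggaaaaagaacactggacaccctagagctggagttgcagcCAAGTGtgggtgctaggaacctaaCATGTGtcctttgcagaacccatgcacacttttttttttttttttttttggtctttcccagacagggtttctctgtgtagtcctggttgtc
The next carried H3K27me3 in NSCs and H3K4me3 without H3K27me3 in OPCs. It is the peak nearest Ddi1, a ubiquitin-related protease, and was intergenic at chr9:6595492-6595721.
Ddi1: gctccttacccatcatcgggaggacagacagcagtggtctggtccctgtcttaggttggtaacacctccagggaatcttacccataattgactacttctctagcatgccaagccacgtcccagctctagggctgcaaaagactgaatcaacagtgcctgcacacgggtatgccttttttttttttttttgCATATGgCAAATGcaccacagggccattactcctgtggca
The last 3 are a peak on NSC H3K4me3 alone and 2 on neither mark. The first lay in an intron of Ppp1r10, a regulatory subunit of protein phosphatase 1, at chr17:35919091-35919284. Those nearest Gm32827 and Gm39241 were intronic at chr10:94428651-94428809 and chr8:107465359-107465515.
Ppp1r10: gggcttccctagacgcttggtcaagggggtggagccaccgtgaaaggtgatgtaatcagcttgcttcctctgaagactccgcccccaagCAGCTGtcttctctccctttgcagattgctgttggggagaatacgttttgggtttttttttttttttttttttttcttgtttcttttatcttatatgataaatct
Gm32827: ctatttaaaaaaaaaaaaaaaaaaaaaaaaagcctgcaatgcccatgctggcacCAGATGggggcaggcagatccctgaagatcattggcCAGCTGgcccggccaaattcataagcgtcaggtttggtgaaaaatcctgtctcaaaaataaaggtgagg
Gm39241: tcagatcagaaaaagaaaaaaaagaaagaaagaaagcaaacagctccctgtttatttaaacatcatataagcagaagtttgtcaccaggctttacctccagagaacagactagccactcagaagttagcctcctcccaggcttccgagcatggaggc
Long runs stand in most of these sequences, of a in the left part and of t in the right part. How often they occurred, and how the overlap with NSC marks differed with and without them, is given below.

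Of the 7384 OLIG2 peaks, 1828 (24.8%, interval 23.8 to 25.8) lay on a peak of at least 1 NSC mark. H3K4me3 alone was found at 1194 (16.2%), H3K27me3 alone at 459 (6.22%) and both at 175 (2.37%), and 5556 (75.2%) had neither. In all, 1369 sites (18.5%, 17.7 to 19.5) carried H3K4me3 and 634 (8.59%, 7.96 to 9.25) carried H3K27me3. Circular shifts moved all OLIG2 peaks of a chromosome by 1 random distance with assembly gaps taken out. Over 1000 shifts, a mean of 125.0 shifted peaks lay on H3K4me3 (lowest 85, highest 156), which is 1.69% of them. The mean for H3K27me3 was 57.8 (31 to 86), or 0.782%, and for both marks 7.78 (1 to 18), or 0.105%. The overlap was thus 10.95-fold over shifts for H3K4me3, 10.97-fold for H3K27me3 and 22.5-fold for both marks, before the runs were taken into account.

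H3K4me3 followed the distance from the transcription start site (TSS) and H3K27me3 did not follow it in this way. Of 1078 OLIG2 peaks within 1 kb of a TSS, 702 (65.1%, 62.2 to 68.0) carried NSC H3K4me3, against 19.4% of shifted peaks in that class. The share was 30.0% between 1 and 3 kb (279 of 929, shifted 4.28%) and 7.22% farther away (388 of 5377, shifted 0.305%). For H3K27me3 it was 7.24% within 1 kb (78 sites, shifted 1.56%), 9.69% between 1 and 3 kb (90 sites, shifted 1.44%) and 8.67% farther away (466 sites, shifted 0.668%), with overlapping intervals. Both marks were found at 88 sites beyond 3 kb, where 0.0593% of shifted peaks had both. Sites with H3K27me3 alone lay a median of 13260 bp from a TSS and those with H3K4me3 alone 794 bp. Among the 2359 sites without a run, H3K4me3 was found at 60.2% within 1 kb, 22.2% between 1 and 3 kb and 3.60% (63 of 1748, 2.78 to 4.59) farther away, and H3K27me3 at 4.82%, 3.94% and 2.69% (47 of 1748, 1.98 to 3.56). Beyond 3 kb these shares were 15.8-fold and 5.59-fold over shifted peaks without a run.

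**Figure D1:**
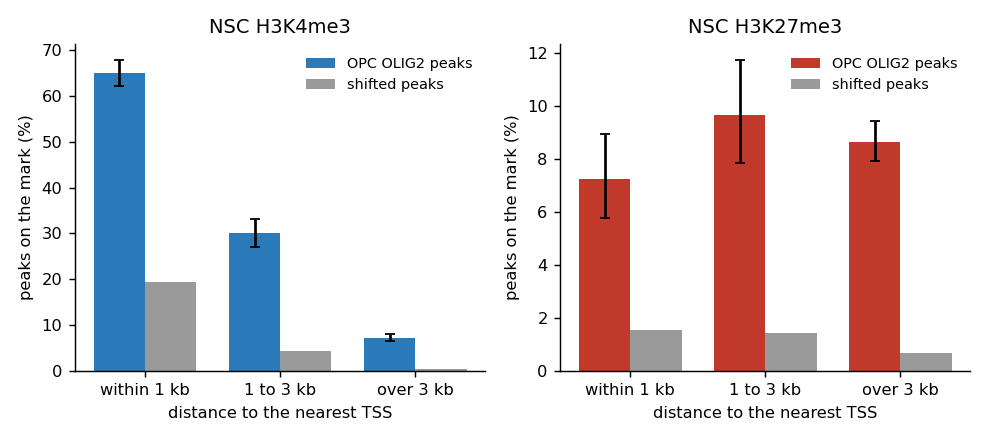
Share of OPC OLIG2 peaks on an NSC H3K4me3 peak (left) and an NSC H3K27me3 peak (right) by distance to the nearest TSS (x axis), in % (y axis), with exact 95% intervals, beside the share of circularly shifted peaks of the same distance class in grey. H3K4me3 dropped from 65.1% to 7.22% with distance, and H3K27me3 stayed between 7.24% and 9.69%.

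H3K4me3 was more frequent and H3K27me3 less frequent at the strongest OLIG2 peaks. H3K4me3 was present at 15.04% of peaks with an OLIG2 fold enrichment under 5, 14.4% from 5 to 10, 23.8% from 10 to 20 and 50% (161 of 322, 44.4 to 55.6) at 20 and above. H3K27me3 was present at 11.3%, 8.85%, 7.72% and 3.73% (12 of 322, 1.94 to 6.42) of the same classes. Among sites without a run, H3K4me3 was at 13.3%, 10.9%, 19.02% and 31.9% (23 of 72, 21.4 to 44.0). There H3K27me3 was at 8.85% (5.49 to 13.3), 2.65%, 2.38% and 1.39% (1 of 72, 0.0352 to 7.50), and the intervals of the upper 3 classes overlapped. The median OLIG2 fold enrichment was 9.87 on H3K4me3 alone, 7.75 on H3K27me3 alone, 7.96 on both and 7.83 on neither. The median GC content was 46.5% on H3K4me3 alone, 40.4% on H3K27me3 alone and 42.6% on neither, and its part was not tested.

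Runs of at least 12 A or T were examined after the sequences above had been read. Within 230 bp around the summit, 5025 of the 7384 OLIG2 peaks (68.1%, 67.0 to 69.1) held such a run, against 2.74% of 73840 shifted windows. The share was 88.3% (560 of 634) on NSC H3K27me3 and 64.3% on neither mark. It was 74.9% on H3K4me3 alone and 85.7% on both marks. Where the longest run was of A, it lay left of the summit in 2505 of 2515 peaks (99.6%), at a median of -59 bp, and where it was of T, right of it in 2500 of 2510 (99.6%), at 58 bp. OLIG2 peaks of NFOs had a run in 65.2% and the same sides in 99.2% of A and 98.8% of T runs.

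Narrow histone peaks held runs too. Among NSC H3K27me3 peaks under 500 bp, 17990 of the 22485, a run stood within 230 bp around the centre in 88.1%. The share was 72.3% for narrow NSC H3K4me3 peaks, 51.5% for OPC H3K27me3, 19.8% for OPC H3K4me3, 30.8% for NFO H3K4me3 and 19.9% for NFO H3K27me3. A runs lay left of the centre in 94.1% of cases in narrow NSC H3K4me3 peaks and in 48.2% in narrow NSC H3K27me3 peaks. In narrow OPC peaks they did so in 92.5% for H3K4me3 and 93.0% for H3K27me3, and in narrow NFO peaks in 95.5% for each mark. NSC H3K27me3 was thus the only narrow histone list without this side. The SMART kit used for OLIG2 adds a tail of one base to DNA fragments and primes from that tail, which is background on the method. Whether it gave rise to the runs was not tested.

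**Figure D2:**
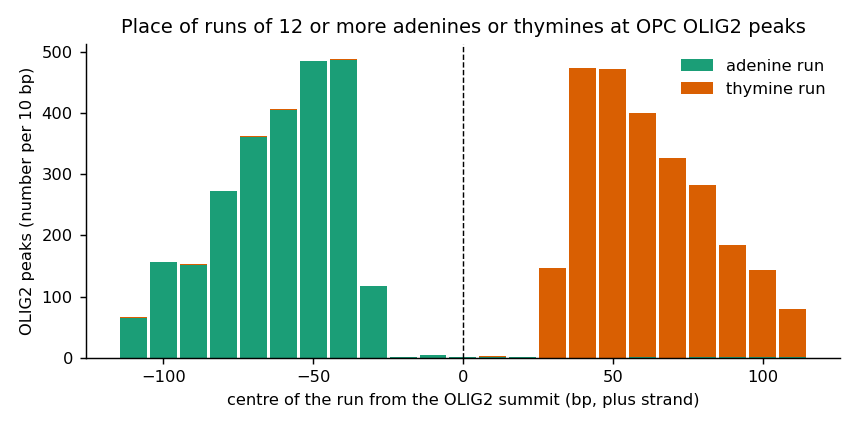
Number of OPC OLIG2 peaks (y axis, per 10 bp) by the distance of the centre of their longest run of 12 or more adenines (green) or thymines (orange) from the OLIG2 summit (x axis, bp on the plus strand). Adenine runs lay left of the summit in 99.6% of 2515 peaks and thymine runs right of it in 99.6% of 2510, with few within 25 bp.

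The overlap with NSC H3K27me3 was much closer to the shifts once peaks with and without a run were set apart. Of the 5025 OLIG2 peaks with a run, 560 (11.1%, 10.3 to 12.1) lay on NSC H3K27me3, and so did 7.62% of shifted peaks that met a run by position, a ratio of 1.46 (1.35 to 1.58). Of the 2359 without a run, 74 (3.14%, 2.47 to 3.92) lay on H3K27me3, against 0.59% of shifted peaks without one, a ratio of 5.32 (4.19 to 6.65). The share on H3K27me3 was 2.99% with a longest run under 8 bases, 3.57% from 8 to 11, 9.61% from 12 to 15, 13.0% from 16 to 19 and 11.2% from 20. Counting each OLIG2 peak against shifted peaks of the same run class and TSS distance class, 401.5 were expected on H3K27me3 and 634 were observed, 1.58-fold (1.46 to 1.70). With classes of TSS distance alone the ratio was 9.59.

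The ratio for H3K4me3 fell less by the same steps. With a run, 1044 peaks (20.8%) lay on NSC H3K4me3 and 6.77% of shifted peaks did, a ratio of 3.07. Without one, 325 (13.8%, 12.4 to 15.2) did and 1.55% of shifted peaks, a ratio of 8.89 (8.01 to 9.83). Within classes of run and TSS distance, 565.9 were expected and 1369 observed, 2.42-fold (2.30 to 2.54), against 5.16-fold within TSS distance alone. For both marks together the ratio in these classes was 2.14 (175 observed, 81.9 expected).

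**Figure D3:**
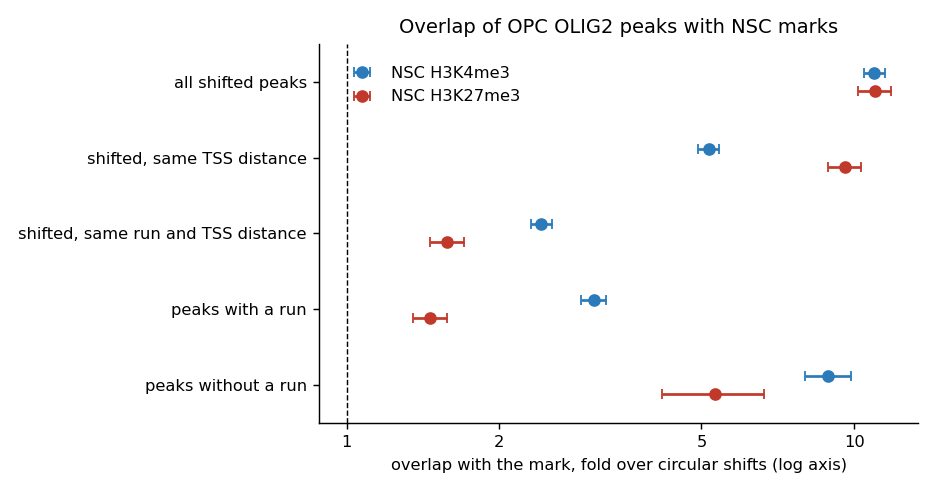
Observed over expected overlap of OPC OLIG2 peaks with NSC H3K4me3 (blue) and H3K27me3 (red) on a log x axis, with bars for the exact 95% interval of the observed share. From top to bottom, the expectation came from all shifted peaks (10.95 and 10.97), those of the same TSS distance (5.16 and 9.59), those of the same run and TSS distance (2.42 and 1.58), and then peaks with a run (3.07 and 1.46) and without one (8.89 and 5.32) against shifted peaks alike. The dashed line is at 1.

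In 100 bp around the summit, an E-box (CANNTG) stood in 39.6% of sites on H3K4me3 alone, 43.4% on H3K27me3 alone, 40.6% on both and 45.9% (44.6 to 47.3) on neither, against 41.0% of 73836 shifted windows. With a run, it stood in 43.6% of OLIG2 peaks (42.2 to 45.0) and 42.1% of those on H3K27me3 (38.01 to 46.4), against 35.3% of 2054 shifted windows. Without one, it stood in 46.8% of OLIG2 peaks (44.8 to 48.9) and 45.9% of those on H3K27me3 (34.3 to 57.9), against 41.1% of shifted windows. The palindrome CAGCTG, one of its kinds, was found in 8.46%, 4.36%, 5.71% and 7.25%, against 3.77% of shifted windows. Without a run, CAGCTG was in 9.71% of OLIG2 peaks (229 of 2359, 8.54 to 10.97) and 3.81% of shifted windows. It was in 41 of 300 on H3K4me3 alone (13.7%, 9.99 to 18.1), in 184 of 1985 on neither mark (9.27%) and in 4 of the 74 on H3K27me3 (5.41%, 1.49 to 13.3). The other palindromes CATATG and CACGTG were in 2.86% and 1.26% of all OLIG2 peaks, against 3.08% and 1.03% of shifted windows. CATATG was in 2.93% with a run, against 1.85% of shifted windows, and in 2.71% without one, against 3.12%. CAGATG or CATCTG was in 9.81% against 7.58% and CAGGTG or CACCTG in 6.89% against 6.29%. A SOX core, ACAAAG or CTTTGT, was in 9.05% against 9.39%, and the shorter ACAAT or ATTGT in 15.2% against 20.3%. Reverse complements were searched throughout, and a match is a description of letters.

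Most NSC H3K27me3 peaks at OLIG2 sites were narrow. Of the 634 sites, 426 lay on a peak under 500 bp, 53 on one of 500 bp to 1 kb, 124 on one of 1 to 5 kb and 31 on one of at least 5 kb. The ratio to all shifted peaks was 15.8, 12.5, 8.71 and 2.52 in this order. Among sites without a run, 38, 9, 19 and 8 lay on these widths, at 6.96 (4.94 to 9.53), 9.92, 5.13 and 2.08 (0.898 to 4.09) times the shifted share. Taking NSC H3K27me3 peaks of at least 1 kb together, 155 sites were observed, 5.84-fold over all shifted peaks, and 104.0 were expected within classes of run and TSS distance, a ratio of 1.49 (1.27 to 1.74). Seen from the mark, 628 of 22485 NSC H3K27me3 peaks (2.79%) held an OLIG2 peak of OPCs and 6 held 2. Of the 296 widest, of at least 5 kb, 29 (9.80%) did.

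Among NSC H3K27me3 peaks that held an OLIG2 peak, the widest were at the Hox clusters, which give cells their position along the body axis. The HoxA domain of 117916 bp held 1 OLIG2 peak with a fold enrichment of 8.004, in Hoxa2 at 53 bp from the TSS of Hoxaas2. The HoxD domain of 74199 bp held 2, with fold enrichments of 6.07 and 10.6, the stronger in an intron of Hoxd10. HoxC (66477 bp) held 1 of 11.8 near Hoxc9 and HoxB (42631 bp) 1 of 6.22 near Hoxb3. The peaks near Hoxc9 and the stronger one in Hoxd10 had no run of 12, with longest runs of 10 and 4 bases.

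Other developmental regulators followed in width among the domains with an OLIG2 peak. Pax3, a factor of the dorsal neural tube and neural crest, had a domain of 31722 bp with an OLIG2 peak of only 3.66, and Nkx2-3, a homeobox factor, one of 27199 bp with a peak of 8.77. Neither peak had a run of 12. Sim2 (26654 bp, OLIG2 5.10), Tfap2a (25994 bp, 12.1) and the lncRNA Gm33293 (21296 bp, 8.05) came next. Foxd3 had 2 OLIG2 peaks of 8.47 and 46.0 in its domain of 20815 bp, both with a run. Pairs were also found in domains of Ralyl (4182 bp), Snf8 (3792 bp) and Pp2d1 (1202 bp).

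The strongest OLIG2 peaks on NSC H3K27me3 were mostly near single genes with narrower domains. The peak near Foxd3, of 46.0, was followed by Map2k6, a kinase of the p38 pathway, with 41.1 at 151 bp from its TSS. Gm34992 had 40.4, Rnf114 34.2, Gm31656 34.1 and Ptpn21 27.9. Carhsp1, an RNA-binding protein, had 26.1, Hapln1, a link protein of the hyaluronan matrix, 25.3, and the lncRNAs Gm30074 and Gm30596 had 23.5 and 21.6. Of these 10, the peak at Gm30074 alone lacked a run, and 6 overlapped an OLIG2 peak of NFOs. The peaks of Foxd3, Map2k6, Gm31656, Ptpn21, Carhsp1, Hapln1 and Gm30074 also lay on NSC H3K4me3. Of all 634 sites on NSC H3K27me3, 175 (27.6%) did. On NSC H3K4me3 alone the strongest were Atg2a, an autophagy lipid carrier, with 167.1, Ppp1r10 with 108.9, A330048O09Rik with 90.9, Limch1 with 81.7 and Dnlz with 77.6, each with a run. On neither mark they were Gm32827 with 112.2, Gm39241 with 85.5, Ccser2 with 81.7, Qrfp, a neuropeptide precursor, with 79.5, and Gm39806 with 72.5.

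Without a run, the strongest peaks on NSC H3K27me3 after Gm30074 were near Kcmf1 (16.7), Elovl3 (15.5), Xkr6 (14.6), Ebf2 (14.5), Ltbp1 (14.3), Sorcs3 (14.3) and Drd2 (13.3), which were singled out after their values were seen. Ebf2 is a helix-loop-helix factor of neurons, Ltbp1 binds latent TGF-β, Elovl3 elongates fatty acids and Drd2 is a dopamine receptor. These peaks lay on NSC H3K27me3 peaks between 292 and 1640 bp wide, and those of Elovl3, Ltbp1 and Sorcs3 also lay on NSC H3K4me3.

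**Figure D4:**
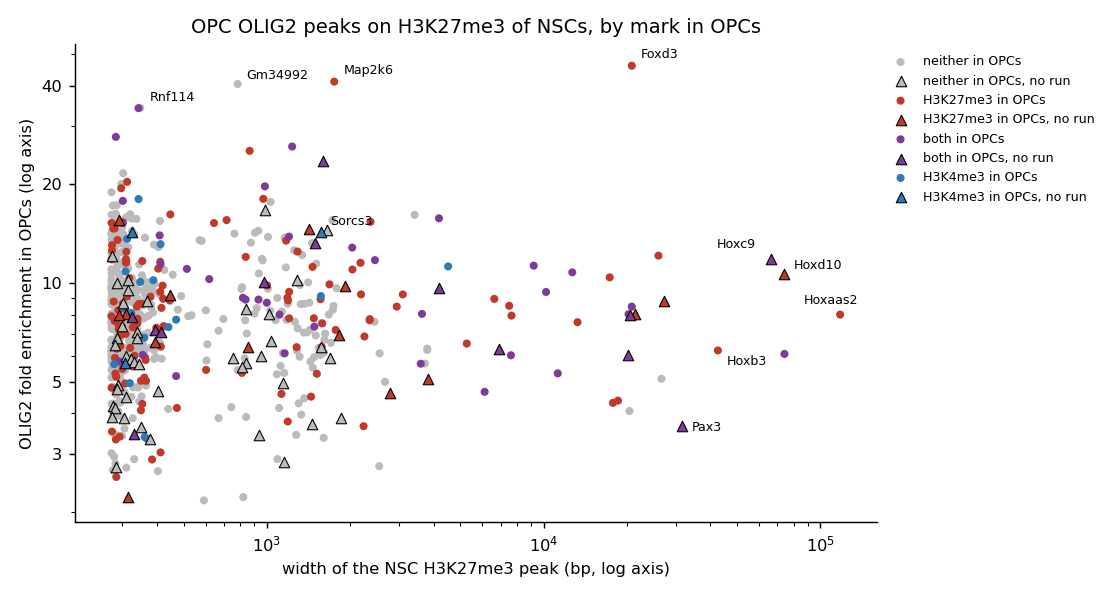
The 634 OPC OLIG2 peaks on NSC H3K27me3, by the width of the NSC peak (x axis, bp, log) and their OLIG2 fold enrichment in OPCs (y axis, log), coloured by the mark at the site in OPCs. Outlined triangles are the 74 peaks without a run of 12 or more A or T. Most lie under 500 bp (426), and the Hox clusters are at the right with OLIG2 fold enrichments between 6.07 and 11.8.

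H3K27me3 of NSCs was found again in OPCs at a minority of the sites. Of the 634, 187 (29.5%, 26.0 to 33.2) overlapped an OPC H3K27me3 peak, 68 (10.7%) an OPC H3K4me3 peak, and 428 (67.5%) had neither. Without a run, 28 of 74 (37.8%, 26.8 to 49.9) carried OPC H3K27me3, and with one 159 of 560 (28.4%, 24.7 to 32.3). Sites with H3K27me3 alone in NSCs had neither mark in OPCs in 361 of 459 cases (78.7%), kept it alone in 94 and changed to H3K4me3 alone in 2. Sites with both NSC marks had both again in 47 of 175, H3K27me3 alone in 44, H3K4me3 alone in 17 and neither in 67. Those with H3K4me3 alone had it alone in OPCs in 733 of 1194 cases (61.4%, 58.6 to 64.2), and those with neither had OPC H3K27me3 alone in 299 of 5556 (5.38%). In NFOs, 71 of the 634 (11.2%, 8.85 to 13.9) carried H3K27me3 and 88 (13.9%) H3K4me3.

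The width of the NSC domain went with what was found later. On NSC H3K27me3 peaks under 500 bp, 94 of 426 sites (22.1%, 18.2 to 26.3) carried OPC H3K27me3, and on those of at least 5 kb 29 of 31 (93.6%, 78.6 to 99.2). NFO H3K27me3 was found at 4.69% and 87.1% of the same sites. NSC H3K27me3 peaks under 500 bp overlapped OPC H3K27me3 in 22.1% with an OLIG2 peak and 13.1% (12.6 to 13.6) without, and OPC H3K4me3 in 7.04% and 1.87%. The run, which is found in most narrow peaks of both kinds, was not held fixed in that comparison. For domains of at least 5 kb, 29 of 29 with an OLIG2 peak and 265 of 267 without (99.3%) overlapped OPC H3K27me3.

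**Figure D5:**
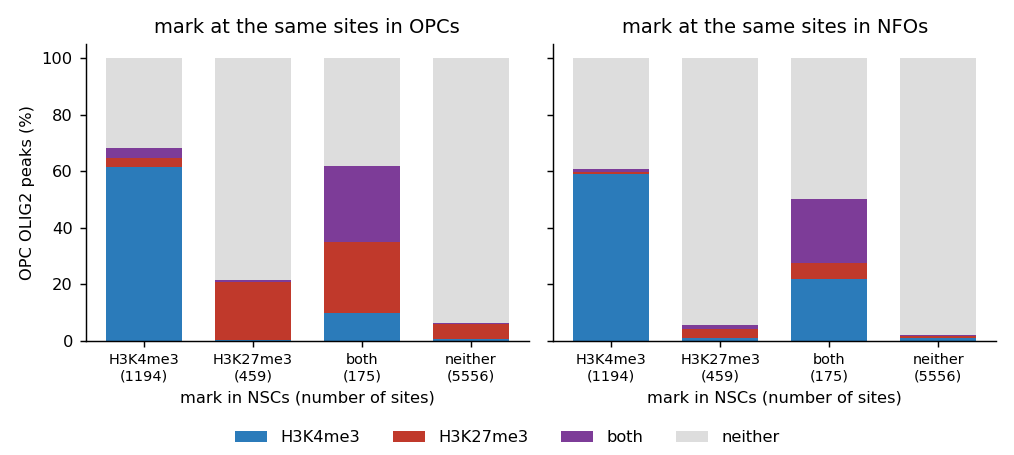
Marks at the OPC OLIG2 peaks in OPCs (left) and NFOs (right), as a share of sites in % (y axis), by the mark at the same sites in NSCs (x axis, number of sites in brackets). H3K4me3 alone was found again in OPCs at 61.4% of its sites and H3K27me3 alone was followed by neither mark at 78.7%.

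At 19 sites NSC H3K27me3 was followed by H3K4me3 without H3K27me3 in OPCs, and 17 of these had both marks in NSCs. The strongest was at Shank2, a postsynaptic scaffold, with an OLIG2 fold enrichment of 18.0 at 41 bp from the TSS. H3K27me3 there had a fold enrichment of 8.28 in NSCs over 343 bp, and H3K4me3 8.68 in NSCs and 9.03 in OPCs. Ltbp1 (OLIG2 14.3) and Sorcs3, a sorting receptor of neurons (14.3), both without a run, came next. Ddi1 (13.6), Abcg1, a sterol exporter (13.1), Calcoco1 (11.2), Gabra2, a GABA-A receptor subunit (10.8), and Ptpn5, a neuronal phosphatase (10.2), followed with a run each, as did 2010308F09Rik (10.1) and 4930545L08Rik (9.12). All 10 had H3K4me3 again in NFOs. Of the 10 strongest sites on NSC H3K27me3, Foxd3, Map2k6, Gm31656, Ptpn21 and Carhsp1 were the 5 highest with H3K27me3 in OPCs, at OPC H3K27me3 fold enrichments of 7.29, 5.17, 8.27, 5.11 and 8.68.

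An OLIG2 peak was assigned to a gene if it lay in the gene body or up to 5 kb before the TSS, and 5053 of 42606 genes had one (11.9%). A site on NSC H3K4me3 was found in 1633 genes, 3.83% of all, and a site on NSC H3K27me3 in 472, 1.11% of all. Of the 472, 339 were protein-coding and 133 lncRNAs, and 444 had 1 such site. In 67 genes a site on NSC H3K27me3 had no run. The median gene length was 42.6 kb for the 472, against 39.5 kb for the other genes with an OLIG2 peak and 9.60 kb for all genes.

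The promoter of the gene, within 2 kb of its TSS, carried NSC H3K27me3 in 228 of the 472 genes (48.3%, 43.7 to 52.9). This compares with 380 of the 4581 other genes with an OLIG2 peak (8.30%, 7.51 to 9.13) and 7.86% of all genes. A site can lie in the promoter itself, so this share is partly fixed by the choice of genes. By state, 108 promoters were bivalent in NSCs (an overlap of both marks and no other peak), 52 had H3K27me3 only, 68 a mixture, 158 H3K4me3 only and 86 no mark. In OPCs 194 of the 472 (41.1%, 36.6 to 45.7) had promoter H3K27me3, against 10.4% of all genes, and in NFOs 128 (27.1%). Of the 228, 78 (34.2%, 28.1 to 40.8) had none in OPCs, against 51.7% (50.04 to 53.5) over all 3347 genes with NSC promoter H3K27me3. Of the 380 other genes with an OLIG2 peak, 222 (58.4%, 53.3 to 63.4) had none. The width of the NSC H3K27me3 domain was not held fixed in these comparisons. For the 67 genes with a site without a run, NSC promoter H3K27me3 was found in 45 (67.2%, 54.6 to 78.2).

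Hox genes held these sites most often among the gene lists. A site on NSC H3K27me3 was found in 8 of 39 Hox genes (20.5%, all genes 1.11%), and no Hox gene had an OLIG2 peak elsewhere. The share with any OLIG2 peak was thus 20.5% too, against 11.9% of all genes and 16.5% of protein-coding genes. NSC H3K27me3 was at the promoter of 39 of 39, so a peak in these genes had little room to lie off the mark. The 8 were Hoxa2 (8.004), Hoxb1 (3.65), Hoxb3 (6.22), Hoxb13 (7.94), Hoxc5, Hoxc9, Hoxd10 (10.6) and Hoxd11 (6.07), where numbers are OLIG2 fold enrichments. Hoxc5 and Hoxc9 share 1 peak of 11.8, and the peak of Hoxd11 is also the weaker site of Hoxd10. Each of the 8 also had a site on NSC H3K4me3 (all genes 3.83%), since the strongest site carried both NSC marks in 7 and H3K27me3 alone in Hoxd10, whose weaker site carried both. In each of the 8, OPC H3K27me3 was found at the site. In 3 of them, Hoxc5, Hoxc9 and Hoxd10, a site had no run.

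An OLIG2 peak in OPCs was found in 6 of 58 homeobox genes (10.3%), 5 of 50 other developmental transcription factors (10%) and 7 of 49 signal genes (14.3%). These shares were near the 11.9% of all genes and under the 16.5% of protein-coding genes. Of the 58 homeobox patterning genes 49 carried NSC H3K27me3 at the promoter (84.5%, all genes 7.86%) and 2 had a site on it, Pax3 and Lhx5, a LIM homeobox factor whose peak of 10.4 lay in a domain of 17323 bp. Of the 50 other developmental transcription factors 38 had promoter H3K27me3 and 4 a site on it. These were Ebf2 (14.5), Foxd3 (8.47), Sim2 and Tbx3, a T-box factor whose peak of 5.20 lay on 469 bp. Of the 49 genes for Wnt, BMP, FGF, hedgehog and retinoid signals 19 had promoter H3K27me3 (38.8%) and 2 a site on it, Wnt4, a Wnt ligand, with 20.3 and Aldh1a2, which makes retinoic acid, with 4.37. Among the genes of these lists, only Pax3 and Ebf2 had a site on NSC H3K27me3 without a run.

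Of 20 oligodendrocyte regulators 8 held an OLIG2 peak in OPCs (40%), against 11.9% of all genes and 16.5% of protein-coding genes. Gene length was not held fixed in the shares of any list, and a longer gene has more room for a peak. The median length was 39.8 kb for genes with an OLIG2 peak and 9.60 kb for all genes. In 4 of them it lay on NSC H3K4me3 (20%, all genes 3.83%, protein-coding genes 5.46%). On NSC H3K27me3 there were 0 of 20, which is near the 1.11% of all genes and 1.545% of protein-coding genes. Those on H3K4me3 were Olig2 itself with 12.6 in an exon, and Sox8 (14.8), Sox9 (36.0) and Zeb2 (5.48), a zinc finger factor needed for myelination. Each had H3K4me3 at the site in OPCs and NFOs too. The peaks of Sox5 (9.92), Sox6 (7.37), St18 (10.5) and Tcf7l2, the Wnt effector (12.5), had no NSC mark. The named peaks of Sox5, Sox6, Sox8, Sox9 and Zeb2 had a run, and those of Olig2, St18 and Tcf7l2 had none.

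Among 20 genes of OPC identity, 9 held an OLIG2 peak (45%), against 11.9% of all genes and 16.5% of protein-coding genes, again with gene length not held fixed. Vcan, a matrix proteoglycan, had its peak of 7.88 on NSC H3K4me3. Pcdh15, a protocadherin of OPCs, had 1 of 3 peaks, of 5.75, on an NSC H3K27me3 peak of 274 bp with a fold enrichment of 3.75, just above the limit of 3.5. That site had a run and neither mark in OPCs. Pdgfra, the receptor that defines OPCs, had a peak of 4.55 and Cspg4 (NG2) one of 25.6, both without an NSC mark. The peak of Cspg4 had a run and that of Pdgfra had none.

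Of 20 genes of myelin and mature oligodendrocytes, 4 held an OLIG2 peak (20%), against 11.9% of all genes and 16.5% of protein-coding genes. Bmp4 and Enpp6 had a site on NSC H3K27me3 (10%). The share was 1.11% over all genes and 1.545% over protein-coding genes. The peak of Bmp4, a ligand made by OPCs on their way to NFOs, was 14.0 with both marks at the site in NSCs, OPCs and NFOs. The peak of Enpp6, an enzyme of newly forming oligodendrocytes, was 15.2, 1633 bp from the TSS. Its site and promoter carried H3K27me3 without H3K4me3 in NSCs and in OPCs, and neither mark in NFOs, where an OLIG2 peak of 9.07 overlapped. Both NSC H3K27me3 peaks were narrow, 409 and 274 bp, and both OLIG2 peaks had a run. Mog (5.99) and Ugt8a (11.03) had no NSC mark at their peaks, although the promoter of Ugt8a, which makes the myelin lipid galactosylceramide, was bivalent in NSCs and had H3K4me3 only later.

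Lists of markers of other cells had 0 or 1 gene with a site on NSC H3K27me3, where lists of this size leave little room around the 1.11% of all genes. NSC genes (0 of 20), neuronal genes (0 of 25), astrocyte genes (0 of 10) and microglial genes (0 of 10) had none, nor did the 15 ubiquitously active genes, which had no OLIG2 peak at all. Of 10 endothelial genes Flt1, a VEGF receptor, had 1, of 8.94 in a domain of 6628 bp. Hes1, a Notch target of stem cells, had a peak of 15.4 without an NSC mark and with OPC H3K27me3. Gad1, the GABA enzyme of interneurons, had one of 62.7 with H3K4me3 in OPCs alone. The named peaks of Flt1, Hes1 and Gad1 had a run. An OLIG2 peak on any mark or none was found in 3 of 10 astrocyte genes (30%) and 2 of 10 microglial genes (20%). It was found in 2 of 10 endothelial (20%), 3 of 20 NSC (15%) and 2 of 25 neuronal genes (8%), against 11.9% of all genes.

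Of 22 genes discussed by the study, which it chose on these samples, 14 held an OLIG2 peak in OPCs (63.6%, all genes 11.9%). All of the 14 but Olig2 were picked by it for OLIG2 peaks in OPCs and NFOs, among genes it called bivalent in NSCs. A peak on NSC H3K27me3 was found in 3 (13.6%, all genes 1.11%). Both counts are thus partly fixed by that choice. By the promoter states used here, Bnip3l, Fbll1, Mkrn1, Ptprk and Ugt8a were bivalent in NSCs. The promoters of 2210016F16Rik, Cadm2, Kif26a, Rell1 and Slc1a1 had H3K4me3 only, those of Pcdh15 and Taok3 a mixture and that of Tmem132d no mark. Fbll1, a fibrillarin-like protein, had a peak of 7.72 at 43 bp from its TSS with both marks in NSCs and H3K4me3 alone in OPCs and NFOs. Tmem132d, a transmembrane protein, had one of 20.0 on 297 bp of NSC H3K27me3, also on H3K4me3, with neither mark in OPCs. The third was Pcdh15, and the sites of all 3 on NSC H3K27me3 had a run. Olig2, Taok3 (11.2), 2210016F16Rik (7.08) and Bnip3l (6.37) had NSC H3K4me3 alone at their strongest peak. Those of Cadm2 (6.23), Kif26a (11.1), Mkrn1 (5.10), Ptprk (6.50), Rell1 (9.28), Slc1a1 (9.29) and Ugt8a lay on neither mark.

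OPC OLIG2 sites with H3K4me3 alone in NSCs were also found in NFOs most often. An NFO OLIG2 peak overlapped 28.5% of them (25.9 to 31.1), 18.9% of those with both marks, 11.8% of those with H3K27me3 alone (8.96 to 15.1) and 11.4% of those with neither (10.6 to 12.2). Among sites without a run the shares were 57 of 300 (14.7 to 23.9%) on H3K4me3 alone, 8 of 49 (7.32 to 29.7%) on H3K27me3 alone and 6.25% of 1985 (5.22 to 7.40) on neither, and the intervals of the marked classes overlapped. Sites on H3K4me3 alone were also stronger (median OLIG2 fold enrichment 9.87, on neither mark 7.83) and nearer a TSS (median 794 bp, on neither mark 12940 bp). Peak strength and TSS distance were not held fixed in this comparison. Shared peaks held a run in 81.9%. The OLIG2 peaks of NFOs themselves lay on NSC H3K4me3 in 11.3% (1910 of 16911) and on NSC H3K27me3 in 8.79% (1486), close to the 8.59% of OPCs. In OPCs' own chromatin, 901 of the OPC sites carried H3K4me3 and 583 H3K27me3, and in NFOs 880 and 144.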

How the data were processed

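H3K4me3 and H3K27me3 ChIP-Seq of NSCs, OPCs and NFOs and OLIG2 ChIP-Seq of OPCs and NFOs were used, 1 library each, grouped by title. The authors mapped reads to mm10 with Bowtie2 and kept unique reads. They used SPP for OLIG2 peaks and MACS2 in broad mode for histone peaks, without blacklisted regions. The deposited lists give for each peak a fold enrichment, a ratio from the authors' peak caller, and the deposited −log10 of its FDR and, for histone marks, of its p-value. NSC peak names carry single-end and the others paired-end read names. Input and RIP-Seq files were not used here, and 1 sequence is not reported here.

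Genes were GENCODE M21 (35312) plus 7294 NCBI lncRNAs. Members and lists were chosen with earlier results of these data known. Genes named are list members with a site on NSC H3K27me3, genes the study discusses, the 10 highest OLIG2 peaks on H3K27me3, the 5 highest of each other class, the 10 widest domains with an OLIG2 peak and the 5 with most peaks, and, by fold enrichment, 10 sites with H3K4me3 and 5 with H3K27me3 in OPCs. Runs were defined after seeing the data. The overlap and shift counts were checked on simulated peaks. Shifts used 1000 draws, and alternatives are below. Scripts ran in Python 3.11.15 with pysam 0.24.0, pandas 2.3.3, Matplotlib 3.10.9, NumPy 2.4.6 and SciPy 1.17.1.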

Additional observations from a re-analysis of the deposited data

How the results depend on the processing

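The counts below follow the order sites on NSC H3K4me3 (1369), on H3K27me3 (634), on both (175) and genes with a site on H3K27me3 (472). With an OLIG2 fold enrichment above 10 they were 636, 166, 51 and 144. With all listed histone peaks H3K27me3 gave 1119 sites, both 330 and genes 853, and with a histone fold enrichment above 5 they were 127, 50 and 110. H3K27me3 peaks of at least 1 kb gave 155, 67 and 128. OLIG2 peaks without a run, chosen after seeing the data, gave 325, 74, 25 and 67. The ratio to shifts for H3K4me3 and H3K27me3 (10.95 and 10.97) was 16.1 and 9.26 above an OLIG2 fold enrichment of 10, and 10.1 and 9.39 above a histone fold enrichment of 5. It was 12.5 and 13.9 with 50% of the OLIG2 peak covered, 12.5 and 13.95 with the summit inside, 7.50 and 9.27 with shifts of 50 to 500 kb, and 23.7 and 13.0 farther than 3 kb from a TSS. For H3K4me3 it was 11.6 with all histone peaks, and for H3K27me3 5.84 with peaks of at least 1 kb. Without a run it was 8.89 and 5.32, within run and TSS distance 2.42 and 1.58, and within the side of the run and TSS distance 2.39 and 1.57, these 3 chosen after seeing the data. The share still on H3K27me3 in OPCs (29.5%) was 34.3% above an OLIG2 fold enrichment of 10, 43.3% above a histone fold enrichment of 5 and 37.8% without a run. No ratio fell below 1, and in the other 27 results under an alternative the value moved by less than 1.5 times for a count or stayed in its interval, and the cause of the changes was not tested. No paired analysis was possible because each condition has 1 library, and no replicate could be left out. Library depth is unknown and limits every list.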
